A study of Mus musculus with 6 samples.

Results

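Passage through G1 phase of the cell cycle is governed in part by 9 genes described here, the 3 D-type cyclins Ccnd1, Ccnd2 and Ccnd3, their kinases Cdk4 and Cdk6, and the CDK inhibitors Cdkn1b, Cdkn1c, Cdkn2c and Cdkn2d. They were chosen by name, and all 9 were found among the 20097 genes listed in a mouse RNA sequencing series. RNA came from c-Kit-positive bone marrow cells, a fraction rich in blood stem and progenitor cells, with WT as the label of 3 libraries and Runx1 KO as that of 3 others. The labels give only these genotype names: the allele, the Cre driver if any, the strain, the age and whether a library came from 1 animal or several are not given, so that p-values measure the spread between these libraries, which may be technical. Values are normalised read counts, that is reads per gene divided by a size factor of the library, and all changes run from WT to Runx1 KO, names that stand throughout for what the libraries are labelled.

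D-type cyclins are made in response to mitogens and activate CDK4 and CDK6. These kinases phosphorylate the retinoblastoma protein and its relatives, which releases E2F factors and lets the cell enter S phase. INK4 inhibitors such as p18 (Cdkn2c) and p19 (Cdkn2d) bind CDK4 and CDK6 themselves, whereas Cip/Kip inhibitors such as p27 (Cdkn1b) and p57 (Cdkn1c) bind cyclin-CDK complexes and chiefly block CDK2. In blood, Cdkn1c is known for keeping stem cells quiescent, Cdk6 for the exit of stem cells from quiescence, and Ccnd3 for the expansion of lymphoid and erythroid precursors.

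Of the libraries as a whole, recovered reads (each deposited value divided by what 1 read is worth) ran from 23297526 to 26793380, and 15410 genes were tested. Runx1 itself went against the label Runx1 KO, with 3031, 2799 and 3497 normalised reads under the label WT and 6648, 6720 and 5830 under the label Runx1 KO (log2 change 1.04, SE 0.10, limma adjusted p 0.00163). The direction of every change is therefore given by the labels alone, and gene totals do not show whether an exon is missing. Kit, the receptor used for sorting, had from 7979 to 8471 normalised reads in WT and from 11507 to 13685 under the label Runx1 KO. The labelled cell type thus held its defining marker in every library, but the level of that marker differed between the groups (log2 change 0.60, SE 0.07, limma adjusted p 0.00346). Whether this difference bears on the 9 genes was not tested.

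In the libraries labelled Runx1 KO, Ccnd3 and Cdkn2d fell and Cdk6 rose, while the other 6 genes did not pass the test. Ccnd3 fell by 41.4% and Cdkn2d fell by 58.8% in mean level, and Cdk6 rose by 31.0%. The test was limma on log2(normalised read count + 1), with Benjamini-Hochberg adjustment over all 15410 genes and a threshold of 0.05. All 9 genes passed the filter on low values, and 3 of 9 were called, beside 21.9% of all tested genes. edgeR and DESeq2 on recovered reads called the same 3 members, beside 21.1% and 25.3% of genes, and so did limma with a block for the replicate number, beside 24.9%. For the 2 lower genes the background is 11.3% of tested genes called lower, and for the 1 higher gene it is 10.6% called higher. Of all called genes 48.4% were higher, and 63.5% were with scaling by library totals, under which the same 3 members were called. The median log2 change of the 9 genes was -0.09, beside -0.0042 over all tested genes, so the group as a whole did not move one way. The groups did not overlap in 3 of the 9 genes, beside 43.3% of all tested genes, and these 3 were the called ones. The plots of values by library and of changes show the 9 genes side by side.

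**Figure D1:**
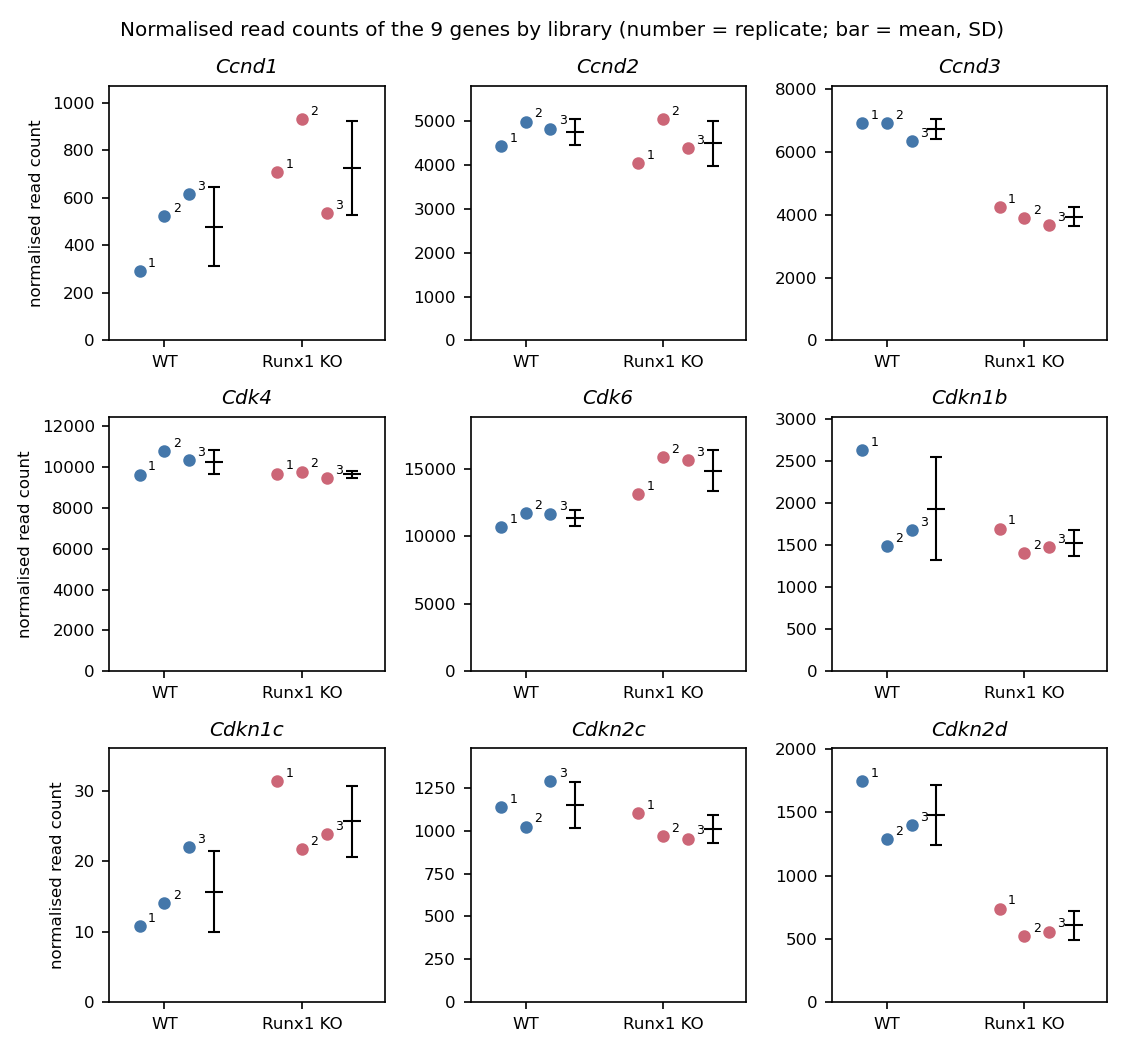
Normalised read count (vertical axis, linear, from 0) of each of the 9 genes in the 3 WT and 3 Runx1 KO libraries. Each point is a library with its replicate number and bars give mean and SD; Ccnd3 and Cdkn2d are lower and Cdk6 is higher in all 3 Runx1 KO libraries than in any WT library, and the groups overlap in the other 6 panels.

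**Figure D2:**
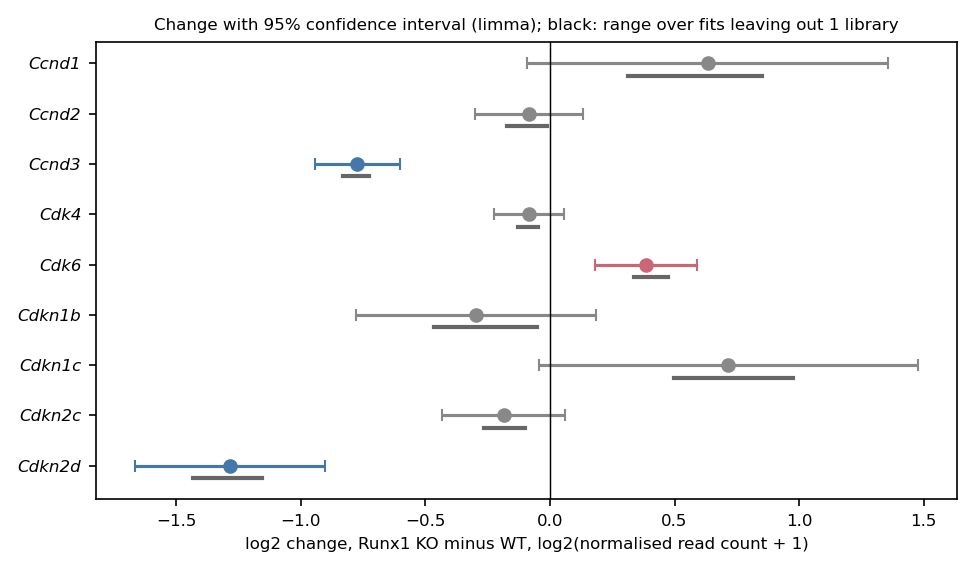
Log2 change from WT to Runx1 KO for each of the 9 genes, with the 95% confidence interval of limma (blue, called lower; red, called higher; grey, not called) and, as a dark bar below it, the range over the 6 fits that each left out 1 library. The interval lies below 0 for Ccnd3 and Cdkn2d and above 0 for Cdk6, and it includes 0 for the other 6 genes.

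Sequences from the 250 bases before the start sites of the 3 genes that changed are shown because RUNX1 binds DNA directly and the 3 genes moved in different directions. That of Cdk4, which was not called, is shown as the only one searched that held RUNX letters. Those of Cdkn1b and Cdkn2c held none and are not printed. RefSeq promoter sequences on GRCm38.p6 were held for 6 of the 9 genes, namely Ccnd3, Cdk4, Cdk6, Cdkn1b, Cdkn2c and Cdkn2d. The 250 bases before each start were searched on both strands for letters bound by RUNX, GATA and E2F factors. The RUNX letters were TGTGGT and, as the other accepted spelling, TGCGGT. The GATA letters were AGATAA and, as the other accepted spelling, TGATAA. The E2F letters were TTCCCGC, with the further accepted spellings TTCGCGC and then also TTGGCGC and lastly also TTGCCGC. No spelling of one motif lies within a spelling of another. These occur in 18.6%, 16.6% and 7.89% of the 32851 promoter windows of the table. Printed are the stretches of those windows that lie outside annotated exons, 5′ to 3′ along the gene, with RUNX matches in capitals. For Cdkn2d and the downstream start of Ccnd3, annotated exon bases lie between the printed stretch and the start.
Ccnd3 upstream start, chr17:47504801-47505050, plus strand: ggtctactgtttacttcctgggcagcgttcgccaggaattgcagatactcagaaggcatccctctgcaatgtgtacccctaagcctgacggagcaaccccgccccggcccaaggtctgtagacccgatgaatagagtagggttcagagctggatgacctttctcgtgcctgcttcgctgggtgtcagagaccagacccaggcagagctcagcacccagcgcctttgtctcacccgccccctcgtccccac
Ccnd3 downstream start, chr17:47593217-47593435, plus strand: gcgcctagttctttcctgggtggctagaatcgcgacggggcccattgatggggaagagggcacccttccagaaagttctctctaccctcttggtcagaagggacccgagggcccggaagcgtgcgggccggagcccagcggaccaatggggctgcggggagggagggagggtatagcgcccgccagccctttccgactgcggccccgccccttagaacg
Cdkn2d, chr9:21291408-21291459, minus strand: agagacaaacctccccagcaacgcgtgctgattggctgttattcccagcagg
Cdk6, chr5:3343789-3343892, plus strand: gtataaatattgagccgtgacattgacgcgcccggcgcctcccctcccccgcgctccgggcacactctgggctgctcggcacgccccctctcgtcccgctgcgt
Cdk4, chr10:127063285-127063533, plus strand: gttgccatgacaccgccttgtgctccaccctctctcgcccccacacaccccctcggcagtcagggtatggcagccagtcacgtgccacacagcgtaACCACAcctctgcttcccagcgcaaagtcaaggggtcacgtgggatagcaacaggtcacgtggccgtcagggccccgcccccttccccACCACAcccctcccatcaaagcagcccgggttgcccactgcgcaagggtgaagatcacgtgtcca
Cdk4 held the RUNX letters 2 times, beginning 154 and 66 bases before its start, both as ACCACA on the gene's strand. The windows of Ccnd3, Cdkn2d and Cdk6 held no match to the searched letters, and among the members the only other match was 1 set of E2F letters (TTCCCGC) 25 bases before a start of Cdkn2c. A match describes letters only, and a missing match says nothing of what binds there or elsewhere.

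Among the D-type cyclins, Ccnd3 (ENSMUSG00000034165; chromosome 17, 47505051 to 47599691, plus strand, GRCm38) had 6912, 6910 and 6356 normalised reads in WT replicates 1 to 3 and 4257, 3885 and 3678 in replicates 1 to 3 labelled Runx1 KO. Every Runx1 KO library lay below every WT library, and the spread within a group was small. The means were 6726 ± 321 and 3940 ± 294 (SD, n = 3). The change on the log2 scale was -0.77 (SE 0.07), at a limma adjusted p of 0.0016. Leaving out any 1 library gave log2 changes from -0.83 to -0.72 and limma adjusted p values up to 0.0128. In bulk RNA, fewer cells of a type that expresses a gene and less RNA per cell cannot be told apart.

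Ccnd2 (ENSMUSG00000000184; chromosome 6, 127125162 to 127152193, minus strand) had 4427, 4992 and 4833 normalised reads in WT and 4047, 5046 and 4385 under the label Runx1 KO. Its groups overlapped, with the highest and the lowest library both labelled Runx1 KO. The log2 change was -0.08, with a 95% interval from -0.30 to 0.13 and a limma adjusted p of 0.541. The interval leaves room for small changes in either direction, but it lies wholly above that of Ccnd3, which ran from -0.94 to -0.60.

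Ccnd1 (ENSMUSG00000070348; chromosome 7, 144929931 to 144939925, minus strand) was the least abundant and most variable of the cyclins, with 293, 525 and 616 normalised reads in WT and 709, 931 and 535 under the label Runx1 KO. Runx1 KO replicate 3 lay within the WT range. The log2 change was 0.63, with a 95% interval from -0.09 to 1.36 and a limma adjusted p of 0.18. Without WT replicate 1, its lowest library, the log2 change was 0.31.

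Because the cyclins differ in transcript length, their balance was taken from normalised reads per kilobase of annotated exon (union of exons, GENCODE M21). On this scale Ccnd3 made up 59.7%, 55.1% and 52.9% of the D-type cyclin signal in WT replicates 1 to 3 and 45.5%, 37.6% and 42.0% in replicates 1 to 3 labelled Runx1 KO. Ccnd3 thus was more than the other cyclins together in every WT library and less than them in every Runx1 KO library. The means were 55.9% ± 3.44 and 41.7% ± 3.95 (SD, n = 3). Ccnd2 stood at 36.8% ± 0.997 in WT and 44.2% ± 3.37 under the label Runx1 KO, and Ccnd1 at 7.35% ± 2.45 and 14.1% ± 2.71 (SD, n = 3). The log2 ratio of Ccnd3 to Ccnd2 was 0.60 ± 0.13 in WT and -0.09 ± 0.23 under the label Runx1 KO (SD, n = 3), with no overlap between groups. The exact permutation test, two-sided, gave p = 0.1 for each of these shares and for the ratio, the smallest that 3 against 3 libraries allow, and 0.129 after adjustment over the 18 shares, totals and ratios compared. Because the shares of a family add up to the whole, a fall of Ccnd3 alone raises the shares of the others. Here and below, shares, totals and ratios use the same values as the single-gene changes and are not separate evidence. The summed signal of the 3 cyclins was 1373 ± 54.6 normalised reads per kilobase in WT and 1080 ± 89.8 under the label Runx1 KO (SD, n = 3; exact permutation p = 0.1). With the longest transcript as length, Ccnd3 made up 66.5% in WT and 53.1% under the label Runx1 KO in the mean, and the difference between groups was -13.4 percentage points, beside -14.2. Whether Ccnd3 exceeds the other cyclins together thus rests on the length chosen.

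**Figure D3:**
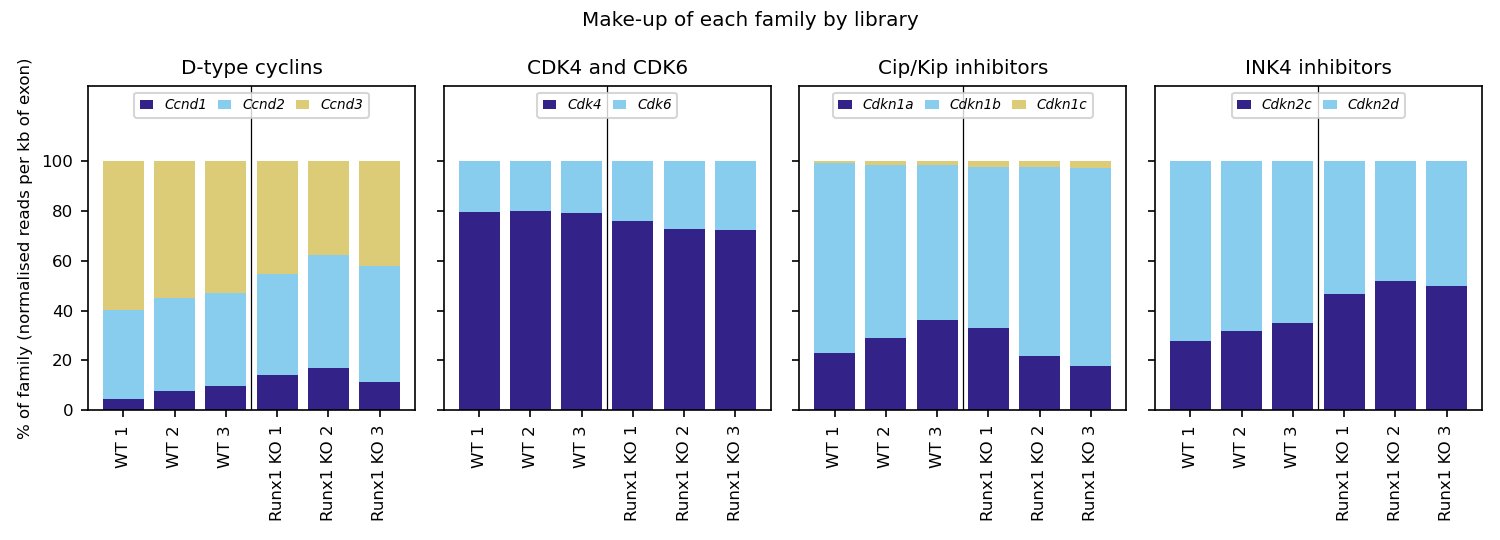
Share of each gene in its family (vertical axis, % of the family's normalised reads per kilobase of exon) in each of the 6 libraries, WT to the left of the line and Runx1 KO to the right. The share of Ccnd3 is between 52.9% and 59.7% in WT and between 37.6% and 45.5% under the label Runx1 KO, and that of Cdkn2d is between 65.0% and 72.3% and between 48.0% and 53.4%.

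Of the kinases that the D-type cyclins activate, Cdk6 (ENSMUSG00000040274; chromosome 5, 3341485 to 3531008, plus strand) had 10678, 11747 and 11666 normalised reads in WT and 13153, 15877 and 15631 under the label Runx1 KO. All 3 Runx1 KO libraries lay above all WT libraries, replicate 1 least so. The means were 11364 ± 595 and 14887 ± 1507 (SD, n = 3). The change on the log2 scale was 0.39 (SE 0.09), at a limma adjusted p of 0.0225. The call was lost without WT replicate 1, WT replicate 3, Runx1 KO replicate 2 or Runx1 KO replicate 3, at limma adjusted p values of 0.0613, 0.0528, 0.0903 and 0.0824, with log2 changes from 0.34 to 0.41. It was kept with edgeR (adjusted p 0.0215) and DESeq2 (adjusted p 3.92e-04).

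Cdk4 (ENSMUSG00000006728; chromosome 10, 127063534 to 127067920, plus strand) had 9615, 10765 and 10306 normalised reads in WT and 9668, 9759 and 9453 under the label Runx1 KO. The groups overlapped, and the log2 change was -0.09, with a 95% interval from -0.23 to 0.05 and a limma adjusted p of 0.333. Per kilobase of exon, Cdk4 was the most abundant of the 9 genes in both groups. Cdk6 made up 20.5% ± 0.299 of the signal of the 2 kinases in WT and 26.4% ± 2.07 under the label Runx1 KO (SD, n = 3), with no overlap and an exact permutation p of 0.1. The summed signal of both kinases was 3961 ± 219 normalised reads per kilobase in WT and 4027 ± 111 under the label Runx1 KO (SD, n = 3), a difference within the spread between libraries (exact permutation p = 0.7).

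The INK4 inhibitor Cdkn2d (ENSMUSG00000096472; chromosome 9, 21288410 to 21291407, minus strand), which encodes p19, had 1744, 1287 and 1400 normalised reads in WT and 740, 525 and 559 under the label Runx1 KO. No library of a group reached the other, and replicate 1 was the highest in both groups. The means were 1477 ± 238 and 608 ± 115 (SD, n = 3). The change on the log2 scale was -1.28 (SE 0.16), at a limma adjusted p of 0.00358. Leaving out any 1 library gave log2 changes from -1.43 to -1.16 and limma adjusted p values up to 0.0189.

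Cdkn2c (ENSMUSG00000028551; chromosome 4, 109660876 to 109667189, minus strand), which encodes p18, had 1138, 1023 and 1287 normalised reads in WT and 1102, 969 and 954 under the label Runx1 KO. The groups overlapped, and the log2 change of -0.19 had a 95% interval from -0.43 to 0.06 and a limma adjusted p of 0.24. Cdkn2a and Cdkn2b, the other INK4 genes, were not analysed here. Of the per-kilobase signal of Cdkn2c and Cdkn2d, Cdkn2d made up 68.5% ± 3.69 in WT and 50.5% ± 2.71 under the label Runx1 KO (SD, n = 3; exact permutation p = 0.1), and their sum was 1366 ± 167 against 762 ± 103 normalised reads per kilobase (SD, n = 3; exact permutation p = 0.1). Neither the share nor the sum overlapped between the groups.

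The Cip/Kip inhibitor Cdkn1b (ENSMUSG00000003031; chromosome 6, 134920401 to 134925513, plus strand), which encodes p27, had 2629, 1488 and 1675 normalised reads in WT and 1698, 1401 and 1479 under the label Runx1 KO. WT replicate 1 stood apart from all other libraries, and the remaining values of both groups overlapped. The log2 change was -0.30, with a 95% interval from -0.78 to 0.18 and a limma adjusted p of 0.328, and it was -0.05 without WT replicate 1.

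Cdkn1c (ENSMUSG00000037664; chromosome 7, 143458339 to 143461050, minus strand), an imprinted gene that encodes p57, was close to the limit of detection in this fraction. It had 11, 14 and 23 recovered reads in WT and 30, 22 and 24 under the label Runx1 KO, or 15.7 ± 5.75 and 25.7 ± 5.04 normalised reads (SD, n = 3), above the floor of 3 reads in every library. WT replicate 3 lay just above the lowest Runx1 KO library. The log2 change of 0.72 had a 95% interval from -0.04 to 1.48 and a limma adjusted p of 0.153, so at this depth neither no change nor a rise of more than 1 on the log2 scale was told apart. The third Cip/Kip gene, Cdkn1a, which encodes the p53 target p21, had 612, 485 and 760 normalised reads in WT and 683, 313 and 262 under the label Runx1 KO (log2 change -0.67, 95% interval from -1.51 to 0.17, limma adjusted p 0.214). Cdkn1b made up most of the per-kilobase Cip/Kip signal in both groups, 69.4% ± 7.19 in WT and 73.0% ± 7.83 under the label Runx1 KO (SD, n = 3; exact permutation p = 0.6), and Cdkn1c 1.34% ± 0.572 and 2.71% ± 0.124 (SD, n = 3; exact permutation p = 0.1).

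Ordered by mean normalised reads per kilobase in WT, the genes ran Cdk4 (3148), Cdkn2d (938), Cdk6 (812), Ccnd3 (766), Ccnd2 (505), Cdkn2c (428), Cdkn1b (424), Ccnd1 (101) and Cdkn1c (7.70). Cdk4, Ccnd1 and Cdkn1c were separated from their neighbours in every library. Ccnd3 and Ccnd2 did not overlap either, whereas Cdkn2d and Cdk6 did, as did Cdk6 and Ccnd3, Ccnd2 and Cdkn2c, and Cdkn2c and Cdkn1b. Under the label Runx1 KO the order was Cdk4 (2963), Cdk6 (1064), Ccnd2 (478), Ccnd3 (449), Cdkn2d (386), Cdkn2c (375), Cdkn1b (335), Ccnd1 (154) and Cdkn1c (12.6), with Cdk6 now apart from all others and every pair of neighbours from Ccnd2 to Cdkn1b overlapping. Cdkn2d thus stood at rank 2 in WT and at rank 5 under the label Runx1 KO. With the longest transcript as length Ccnd3 ranked 2 and 3 in these groups, Cdkn2d 3 and 5, Cdk6 4 and 2, and Ccnd2 5 and 4, so the places of these 4 genes rest in part on the length chosen.

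The other genes of the pathway were taken from a list ordered by role. Of 41 listed genes, 39 were found and tested, and 13 were called, 9 lower and 4 higher, beside 21.9% of all tested genes; the median log2 change was -0.01, beside -0.0042 over all tested genes. Without Runx1 KO replicate 2 the count was 8, and without Runx1 KO replicate 3 it was 7. By role, the called genes were 4 of 7 upstream regulators, 3 of 10 E2F and DP genes, 2 of 9 genes of cyclin and p27 turnover, 1 of 4 CDK2 partners, 1 of 3 pocket proteins, 1 of 2 other inhibitors, 1 of 1 phosphatase and 0 of 3 subunits of the CDK-activating kinase. The roles were not tested against each other.

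The largest fall in the list was that of E2f2, which encodes an activator E2F, from 4433, 3302 and 2944 normalised reads in WT to 1560, 1155 and 1280 under the label Runx1 KO (log2 change -1.41, SE 0.17, limma adjusted p 0.00328). The other activators E2f1 and E2f3 were not called, with log2 changes of -0.08 and 0.23. E2f8, which encodes a repressor E2F, fell by 0.41 on the log2 scale and Tfdp2, which encodes a DP partner, rose by 0.37 (limma adjusted p 0.0174 and 0.0396). The call of Tfdp2 was lost when any of 4 libraries was left out (WT replicates 2 and 3, Runx1 KO replicates 2 and 3), at adjusted p values up to 0.129. Rb1, which encodes the retinoblastoma protein, fell from 2683 ± 306 to 1887 ± 185 normalised reads (SD, n = 3; log2 change -0.51, SE 0.10, limma adjusted p 0.0168), while Rbl1 and Rbl2 had log2 changes of -0.01 and 0.06. The call of Rb1 was lost without Runx1 KO replicate 2 or 3.

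Upstream of the cyclins, Myc and Mycn, which encode growth-promoting transcription factors, were both higher. Mycn had 122, 136 and 205 normalised reads in WT and 333, 473 and 332 under the label Runx1 KO (log2 change 1.31, SE 0.23, limma adjusted p 0.0106), and Myc rose by 0.63 on the log2 scale (SE 0.13, limma adjusted p 0.0159), a call lost without Runx1 KO replicate 2 or 3. Foxo3, which encodes a factor known to activate Cdkn1b, had 3410, 2910 and 3005 normalised reads in WT and 4542, 4522 and 4540 under the label Runx1 KO (log2 change 0.55, SE 0.07, limma adjusted p 0.00379). Cdkn1b itself did not pass, as given above. Bcl6, which encodes a repressor of transcription active in B cells, fell by 1.31 on the log2 scale (SE 0.23, limma adjusted p 0.00935).

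Cdkn3, a phosphatase that acts on CDKs, fell from 728 ± 46.3 to 371 ± 22.3 normalised reads (SD, n = 3; log2 change -0.97, SE 0.09, limma adjusted p 0.00163), and it is a different kind of gene from the CDK-binding inhibitors despite its name. Usp2, which encodes a deubiquitinase of cyclin D1, fell by 0.77 on the log2 scale (limma adjusted p 0.0131). Smaller falls were those of Ccna2 (log2 change -0.36), Cdc25a (-0.37) and Cks1b (-0.30), which encode cyclin A2, a phosphatase that activates CDK2, and a cofactor of p27 turnover. Their limma adjusted p values were 0.0182, 0.0382 and 0.0155. The calls of Ccna2 and E2f8 were each lost in 1 of the 6 leave-one-out fits, without Runx1 KO replicate 2 and 3 in turn. That of Cks1b was lost without Runx1 KO replicate 3, and that of Cdc25a in every such fit except the one without WT replicate 1. With scaling by library totals the adjusted p values of Cdc25a and Cks1b were 0.0669 and 0.0504. Cdk2, Ccne1 and Ccne2 were not called.

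**Figure D4:**
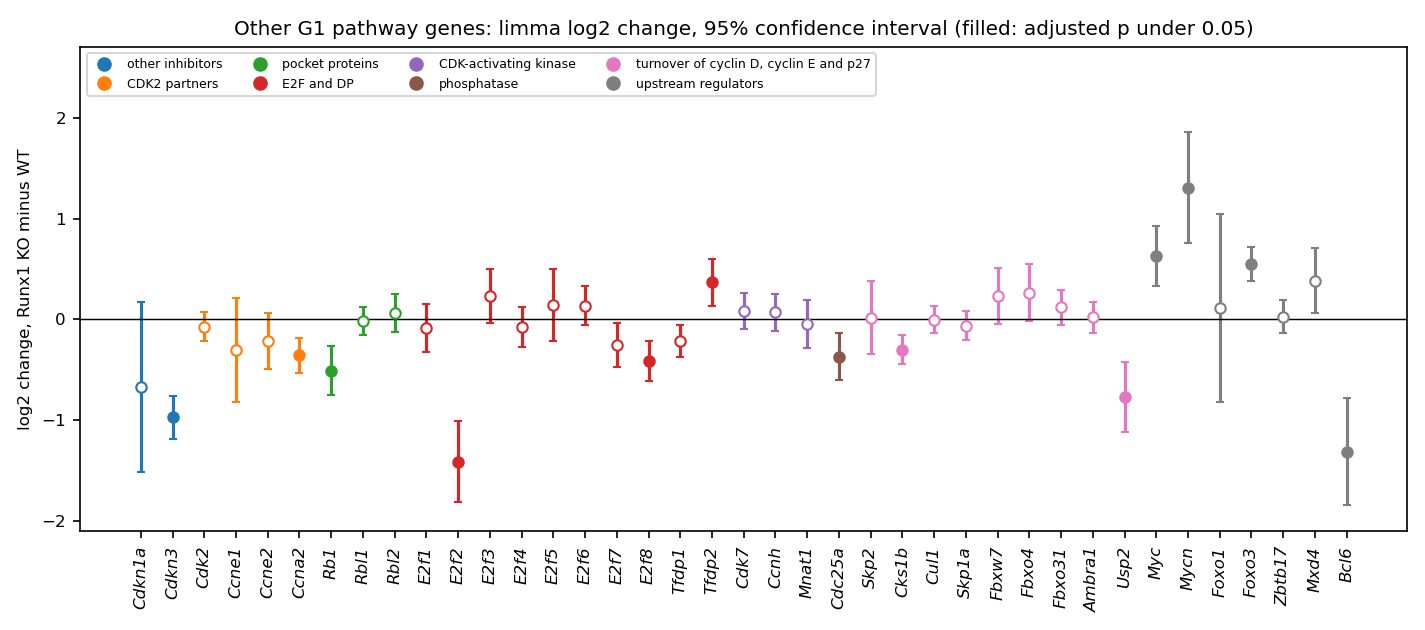
Log2 change from WT to Runx1 KO (vertical axis) with 95% confidence interval of limma for the 39 other G1 pathway genes, coloured by role, with filled points for an adjusted p under 0.05. Of the 13 filled points 9 lie below 0, E2f2 and Bcl6 lowest, and 4 lie above it, Mycn highest.

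Genes of cycling cells were listed to show what moved beside the members. Of 19 genes of S phase and mitosis, 10 were called lower and 0 higher, beside 11.3% of all tested genes called lower, and the median log2 change was -0.26. Among those called, the log2 changes ran from -0.60 for Rrm2, which encodes a subunit of ribonucleotide reductase, to -0.25 for Mcm5. Mki67, the gene of the proliferation marker Ki-67, was not called (log2 change -0.14, limma adjusted p 0.463), and its libraries overlapped, with 19403 to 27316 normalised reads under the label Runx1 KO and 24585 to 28295 in WT. The count of called genes was 5 with scaling by library totals and 4, 5, 5, 2 and 4 without WT replicate 2, WT replicate 3 and Runx1 KO replicates 1, 2 and 3. Whether these genes had a part in the changes of Ccnd3, Cdk6 and Cdkn2d was not tested.

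Lists of markers of other cell types are given beside these results, to be read against 11.3% of all tested genes called lower and 10.6% called higher. Of 8 B-lymphoid markers 6 were called lower, and their summed normalised reads were 27674, 6166 and 10095 in WT replicates 1 to 3 and 2840, 1070 and 1022 in replicates 1 to 3 labelled Runx1 KO. In this and the other marker lists no gene was at 0 in any library. WT replicate 1, highest in this sum, was also the highest library for Cdkn2d and Cdkn1b and the lowest for Ccnd1, Cdk6 and Cdkn1c. It was the highest for Ccnd3 too, with 6912 normalised reads against 6910 in WT replicate 2. For Ccnd2, Cdk4 and Cdkn2c it was neither the highest nor the lowest. Of 8 neutrophil markers 7 were called lower, with sums from 271765 to 331171 in WT and from 135212 to 184822 under the label Runx1 KO. Of 8 stem and multipotent markers 5 were called higher, with sums from 9247 to 12346 in WT and from 14248 to 17008 under the label Runx1 KO. Of 5 basophil and mast cell markers 4 were called lower (sums from 6235 to 8956 in WT and from 2179 to 3754 under the label Runx1 KO). The other, Cpa3, went the other way without a call (log2 change 0.40, limma adjusted p 0.194). It held most of the sum under the label Runx1 KO. Among 5 megakaryocyte markers 4 were called higher (3048 to 3727 and 4389 to 6299). The other, Pf4, was lower in every Runx1 KO library than in any WT library, without a call (log2 change -0.89, limma adjusted p 0.0782). Among 7 erythroid markers 2, Slc4a1 and Hba-a1, were called lower, with sums that overlapped (15951 to 26470 and 14975 to 26480). Log2 changes were negative in 4 of the 7 and positive in 3, none of these 3 called. The 3 were Klf1 (0.74, limma adjusted p 0.0816), Epor (0.68, 0.107) and Ermap (0.65, 0.167). Klf1 was higher in every Runx1 KO library than in any WT library. Of 6 monocyte and macrophage markers 2 were called lower, with sums that overlapped (32440 to 34896 and 23079 to 33445), and of 5 T and NK markers 1 (6094 to 6917 and 4270 to 4588). That 1 marker was Nkg7, which held most of the T and NK sum. It had 5450, 6523 and 5547 normalised reads in WT and 3750, 4463 and 4163 under the label Runx1 KO. The 4 T and NK markers not called overlapped between the groups. In each of these 4 only Runx1 KO replicate 1 reached the WT range, and Runx1 KO replicates 2 and 3 lay below every WT library. Without WT replicate 1 the log2 changes of Ccnd3 and Cdkn2d were -0.75 and -1.16, with limma adjusted p values of 0.00596 and 0.00898. Runx1 KO replicate 1 lay nearest to WT among its group in the neutrophil sum, with 184822 normalised reads against 142884 and 135212 in the others, but not in the stem and multipotent sum, where its 17008 was the highest. It had a score of 22.8 against 64.5 and 60.8 on the first principal component, where WT is negative. It was also the library of its group nearest to WT for Ccnd3, Cdkn2d and Cdk6, and without it their log2 changes were -0.83, -1.43 and 0.47, with limma adjusted p values of 0.00162, 0.00237 and 0.00623. The part of these cell types in the changes of the 9 genes was not tested.

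The genes most like the 3 called members across the 6 libraries were looked up among 11199 genes with a mean of at least 100 normalised reads, by Pearson's r of log2 values; with 6 libraries in 2 groups and so many genes, values near 1 are easily reached and are a description only. For Ccnd3 these were Nfu1 (r = 0.999), an iron-sulfur cluster assembly gene, and Rflnb (r = 0.999). For Cdk6 they were Fastkd1 (r = 0.998) and Golga4 (r = 0.995). For Cdkn2d they were Blk (r = 0.998), which encodes a kinase of B cells, and Tnfsf13b (r = 0.997), which encodes the B-cell survival factor BAFF. Blk had 999, 219 and 442 normalised reads in WT and 23, 4.96 and 7.96 under the label Runx1 KO, so its range over the libraries was far wider than that of Cdkn2d.

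Exons of 6 members overlap exons of a gene on the opposite strand, and the strand setting of the counting is not given in the sources used here. The overlap is 1100 bases with LTO1 for Ccnd1, 641 bases with Tspan31 for Cdk4, 361 bases with Bysl for Ccnd3 and 368 bases with Gm17590 for Cdk6. Bysl had 1865 ± 125 normalised reads in WT and 1855 ± 236 under the label Runx1 KO (SD, n = 3), and Gm17590 had 49.0 ± 20.1 and 69.4 ± 4.14 (SD, n = 3), far below Cdk6. LTO1 had 482 ± 61.1 and 492 ± 14.5 (SD, n = 3), beside means of 478 and 725 for Ccnd1. Tspan31 had 1085 ± 41.5 and 956 ± 10.4 (SD, n = 3), beside 10228 and 9627 for Cdk4. Whether reads of LTO1 entered the count of Ccnd1 was not tested. Cdkn2d has no such overlap in the annotation.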

How the data were processed

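Poly-A selected, stranded libraries of total RNA from c-Kit-positive mouse bone marrow cells were sequenced on a HiSeq2500, per the labels' protocols. The submitters' processing notes name HISAT2, HTSeq 0.9.1, mm10 and GRCm38, with no role or order. The deposited values are a signal: gene read counts divided by a library size factor. In all 6 files 100% of values were whole multiples of what 1 read is worth (tolerance 0.001), and recomputed median-of-ratios size factors (0.956 to 1.04) matched; these multiples are the recovered reads. Totals ran from 23297526 to 26793380 reads, and 3 reads equal 2.88 to 3.14 normalised reads; this covers counting error only. Genes under 10 reads in total are not listed.

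limma 3.58.1 (eBayes with trend, R 4.3.3) was fitted to log2(value + 1) with group as the only term, after filterByExpr (minimum count 10, total 15), and the code was checked on simulated data. edgeR 4.0.16 (TMM) and DESeq2 1.42.0 were run on recovered reads as alternatives, beside other scalings, pseudocounts (0.5, 5), filters, the replicate block and leaving out each library. Symbols came from a supplied table (20077 identifiers matched), lengths and positions from GENCODE M21 on GRCm38. The named genes were the 9 members, other G1 pathway genes past the threshold, the 2 genes most like each called member, and Runx1 and Kit; other names were chosen after their values were seen. Members and lists were chosen with earlier results of these data known.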

Additional observations from a re-analysis of the deposited data

How the results depend on the processing

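With all libraries kept, the 9 alternatives to the reported fit gave 3182 to 3908 called genes against 3370, 3 called members each, and 12 to 15 of the other G1 pathway genes against 13; edgeR called 3263 genes and DESeq2 3908. Scaling by library totals lowered the count of S phase and mitosis genes from 10 to 5, and it shifted the median of all genes to 0.08; 63.5% of calls were then higher, against 48.4%. Without gene length, the share differences of Ccnd1, Cdk6 and Cdkn1c were 3.86, 7.99 and 0.655 percentage points against 6.75, 5.88 and 1.38. When a library was left out, from 1367 to 3597 genes (lowest without Runx1 KO replicate 2), 2 to 3 members (Cdk6 lost in 4 fits), 7 to 15 G1 pathway genes and 2 to 10 S phase and mitosis genes were called; the cause was not tested. Of 215 values for single genes with all libraries kept, 212 gave the reported call, 3 lost it and 0 changed sign; leave-one-out fits gave 144 more, of which 124 gave the reported call, 20 lost it and 0 changed sign. Cdkn1c has no value under a mean CPM of at least 1, which removed it.

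The replicate numbers in the titles are shared between groups, and 3 libraries a group cannot settle whether these numbers pair the libraries. After subtraction of group means, libraries with the same number correlated at 0.287, 0.129 and -0.0104 for replicates 1, 2 and 3. Libraries with different numbers correlated at -0.28 to 0.23, and not every library correlated best with its own number. With the replicate block 3843 genes were called against 3370, and the same 3 members, 3 of 3 shared, with log2 changes of -0.77, 0.39 and -1.28 for Ccnd3, Cdk6 and Cdkn2d and limma adjusted p values of 8.2e-04, 0.00635 and 4.18e-04; Tfdp2 lost its call (0.056). Depth limits Cdkn1c, at 11 to 30 reads a library.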
